A study of Mus musculus with 88 samples.

Results

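Male mice that received a Fosb guide through vectors that do not depend on Cre were compared with males that received a non-targeted guide in the same way. The comparison holds 11 of the 87 libraries of the study that have counts, 4 with the Fosb guide (g11, labelled M_D1-D2-targeted) and 7 with the control guide (gNT, labelled M_D1-D2-control). They were chosen by these labels alone. All 11 came from nucleus accumbens of males of the D1-Cre genotype on a C57BL/6 backcross, dissected 6 days after surgery and sequenced in batch 1. Both groups carried 2 herpes simplex vectors. One encoded a catalytically dead Cas9 joined to CREB(S133D), a form of CREB that is always active, and the other the guide. The mice thus had a Cre transgene that the vectors did not need, in the control group too. The labels give no age and do not say whether each library is 1 mouse. Libraries are named here by the numbers in their titles. Exact permutation p-values measure the spread between these 11 libraries. The edgeR p-values use a spread estimated from all 87 libraries in 12 groups, not from these 11 alone.

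The nucleus accumbens is a reward region of the ventral striatum, made up mostly of medium spiny neurons with D1 or D2 dopamine receptors. Fosb encodes FosB and the truncated, stable ΔFosB, AP-1 transcription factors that dimerise with Jun proteins and accumulate in these neurons after repeated stimulation. CREB is an activator that binds cyclic AMP response elements. Brought to a promoter by a dead Cas9 it is meant to raise transcription of the neighbouring gene. The tissue was taken whole, so fewer cells of a type and less RNA per cell cannot be told apart.

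One Fosb-guide library, 18919, had far less usable depth than the rest. It held 12615397 counts in all, of which 94.4% fell on its 10 most abundant genes and 90.5% on 4 features that collect ribosomal RNA reads (CT010467.1, Gm42418, AY036118 and Lars2). That left 706847 counts for all other genes, against 17416395 to 46072589 in the other 10 libraries. It had a count for 18221 genes, against 29801 to 33224. After TMM scaling 3 counts in it equal 2.97 CPM, so levels of low genes there rest on a few reads. It also had 10 counts of Xist, the RNA of the inactive X chromosome, where the other 10 libraries had 5 to 28 counts. After scaling this was 9.90 CPM, while the other 10 libraries had 0.112 to 0.447 CPM. The 9.90 CPM rests on the low TMM factor of 18919, 0.0801. The Y-linked Ddx3y of 18919 was at 59.4 CPM (60 counts), within the 57.8 to 110.1 CPM of the others.

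**Figure D1:**
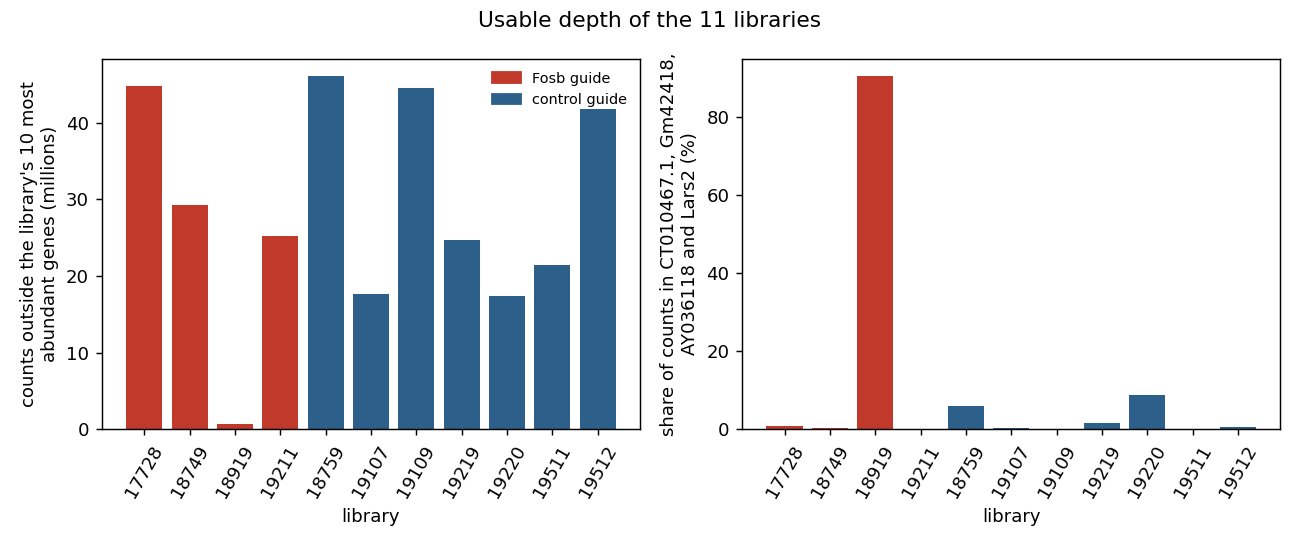
Counts outside each library's 10 most abundant genes (left) and the share of counts on the 4 ribosomal RNA-like features (right, percent), for the 4 Fosb-guide (red) and 7 control-guide (blue) libraries. Library 18919 has 706847 counts outside its top genes and 90.5% on the 4 features; no other bar on the right passes 8.88%.

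A second Fosb-guide library, 18749, was nearly the same in its counts as library 18722 of another group, males given the Fosb guide through Cre-dependent vectors (M_D1-targeted). Over 18846 genes the median chi-square between them was 0.759, while the next closest pair among these libraries (19512 and 19211) had 3.75. Their correlation on log2 CPM was 0.9937. The sources used here do not say whether they share an animal. Controls 19220 and 19511 stood apart by low transcripts of the immune response, and 19219 and 18919 by transcripts of cortical neurons, as given with those genes below. Results are therefore given also without 18919, without 18749 and without 19220 and 19511, the last chosen after the values were seen.

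Markers of medium spiny neurons were present in every library. Ppp1r1b, which encodes DARPP-32, was at 343, 313, 345 and 539 CPM in Fosb-guide libraries 17728, 18749, 18919 and 19211. In controls it ran from 84.6 (19511) through a median of 381 to 677 CPM (19512). The Fosb-guide levels all lay inside the control range. The D1 receptor gene Drd1 ran from 206 to 355 CPM with the Fosb guide and from 88.2 to 372 CPM in controls, and Drd2 from 57.4 to 82.8 and from 12.9 to 112.5 CPM.

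Fosb was the gene the guide was designed for, and its promoter is shown for reference. The sources used here do not give the guide's sequence or position, so whether it binds within this window is not known. The window runs from 250 bases before to 50 after the RefSeq start (chr7:19309996-19310295, minus strand, GRCm38.p6), and capitals mark TGACG, the first bases of the cyclic AMP response element TGACGTCA.

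Fosb: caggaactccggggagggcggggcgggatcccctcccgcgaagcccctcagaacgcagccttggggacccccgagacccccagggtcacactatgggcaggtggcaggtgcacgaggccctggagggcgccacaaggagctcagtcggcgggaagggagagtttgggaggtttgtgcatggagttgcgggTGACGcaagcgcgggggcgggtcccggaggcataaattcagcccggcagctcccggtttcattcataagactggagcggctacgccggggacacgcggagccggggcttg

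TGACG lies at bases 191 to 195. On either strand it occurs in 20.8% of 32851 RefSeq promoter windows of the same length. The window holds neither the whole element (1.79% of windows) nor the AP-1 motif TGANTCA (7.81%), which says only that those letters are not in these bases.

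Fosb was at 12.7 CPM in library 17728, 5.35 in 18749, 7.92 in 18919 (8 counts) and 16.7 in 19211. Controls ran from 2.43 (19511) through a median of 9.07 to 10.4 CPM (19107). Libraries 17728 and 19211 lay above all controls and the other Fosb-guide libraries inside the control range. The difference in mean log2 CPM was 0.60 (exact permutation p = 0.255, two-sided, 330 splits). In the edgeR fit the fold change was also 0.60 (SE 0.27, unadjusted p = 0.0315, adjusted p = 1), and without 18749 it was 0.89 (unadjusted edgeR p = 0.00364, edgeR adjusted p = 0.861). The difference in mean log2 CPM was 0.25 without controls 19220 and 19511 (exact permutation p = 0.587) and 1.18 without 18919 and 18749 (exact permutation p = 0.0833, 36 splits). The 10 tested neighbours of Fosb on chromosome 7 had edgeR log2 fold changes from -0.15 (Rtn2) to 0.26 (Vasp), and none passed the test. Their median was 0.00 with 5 of 10 above 0, and -0.13 with 0 of 10 above 0 without 19220 and 19511.

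Heat shock genes were the named group in which members passed the test once library 18749 was left out. The stress-induced HSP70 chaperones Hspa1a and Hspa1b and the co-chaperone Dnajb1 were high in Fosb-guide libraries 17728 and 19211. Hspa1a was at 18.8 CPM in 17728, 1.58 in 18749, 2.97 in 18919 (3 counts) and 8.27 in 19211. Controls ran from 1.08 through a median of 1.92 to 8.85 CPM, the highest being 19109. Only 17728 was above every control, and 18749 was below the control median.

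Hspa1b gave the same order. It was at 27.3 CPM in 17728, 1.605 in 18749, 9.90 in 18919 (10 counts) and 13.7 in 19211. Controls ran from 0.691 through 2.54 to 10.96 CPM, again highest in 19109. Dnajb1 was at 78.5, 43.1, 49.5 and 84.5 CPM in the Fosb-guide libraries in that order, against 39.6 through 43.7 to 66.5 CPM in controls. For both genes 17728 and 19211 exceeded all controls and 18749 lay among them.

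With all 11 libraries none of these passed edgeR's quasi-likelihood test with Benjamini-Hochberg adjustment over 25420 genes, at 0.05. Log2 fold changes were 1.56 (SE 0.41) for Hspa1a, 1.88 (SE 0.51) for Hspa1b and 0.41 (SE 0.13) for Dnajb1, each with an edgeR adjusted p of 1. Without 18749, 4 of 25844 genes passed (0.0155%): Hspa1a (1.99, edgeR adjusted p = 0.0474), Dnajb1 (0.62, edgeR adjusted p = 0.0474), Gm20481 (2.06, edgeR adjusted p = 0.0446) and Gm23935, described below. Without 18749 and 18919, 3 of 26567 passed (0.0113%), and these were Hspa1a at 2.24, Dnajb1 at 0.75 and Gm20481 at 2.20, each at an edgeR adjusted p of 0.0181. Hspa1b did not pass in either case (edgeR adjusted p = 0.120 and 0.129). Without 18749 and its near match 18722 the edgeR adjusted p was 0.0548 for Hspa1a and for Dnajb1. It was 1 for both genes without 18749, 19220 and 19511. With the 10 libraries without 18749 fitted alone, so that other groups did not add to the estimate of spread, 0 genes passed. Without 17728 the fold change of Hspa1a was 0.65, that of Hspa1b 1.16 and that of Dnajb1 0.32, each at an edgeR adjusted p of 1. Without control 19109, the highest control, Hspa1a passed at 2.18 (edgeR adjusted p = 0.00627). The Hspa1a call thus appeared when 18749 or 19109 was left out, and was not made when 18722, or 19220 and 19511, were left out together with 18749. Leaving out 17728 lowered the fold change, and no call was made with or without it.

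Gm20481 lies on the plus strand inside the span of Hspa1a on chromosome 17, with 2225 bases of overlap. The sources used here do not say how strand was used in counting, so its reads and those of Hspa1a cannot be told apart. Hspa1a and Hspa1b are near copies, and reads could also be split between them. The RefSeq windows, shown for this likeness, are on the minus strand of GRCm38.p6 at chr17:34972107-34972406 and chr17:34959189-34959488, with GAANNTTC, a core of the heat shock element, in capitals.

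Hspa1a: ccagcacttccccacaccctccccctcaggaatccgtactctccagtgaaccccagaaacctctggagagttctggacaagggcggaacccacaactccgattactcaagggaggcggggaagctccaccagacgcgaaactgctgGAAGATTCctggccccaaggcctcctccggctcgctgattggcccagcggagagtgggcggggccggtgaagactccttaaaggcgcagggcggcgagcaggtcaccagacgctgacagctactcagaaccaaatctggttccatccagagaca

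Hspa1b: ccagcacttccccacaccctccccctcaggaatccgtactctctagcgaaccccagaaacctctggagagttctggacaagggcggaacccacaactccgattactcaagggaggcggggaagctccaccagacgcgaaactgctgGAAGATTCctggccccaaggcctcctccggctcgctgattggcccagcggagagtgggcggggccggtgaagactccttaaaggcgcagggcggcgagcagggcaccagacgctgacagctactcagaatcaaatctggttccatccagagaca

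They are the same at 296 of 300 bases and both hold GAAGATTC at bases 147 to 154, a match on both strands. The pattern occurs in 7.86% of the promoter windows. In the wider list of heat shock genes 0 of 15 passed with all libraries. The median of the 15 was 0.145 and 14 of them were above 0, where all genes had a median of -0.03 and 45.4% above 0. The constitutive chaperone Hspa8 was at 0.12. The list's summed level was 3168 to 4918 CPM with the Fosb guide and 3175 to 4311 CPM in controls.

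**Figure D2:**
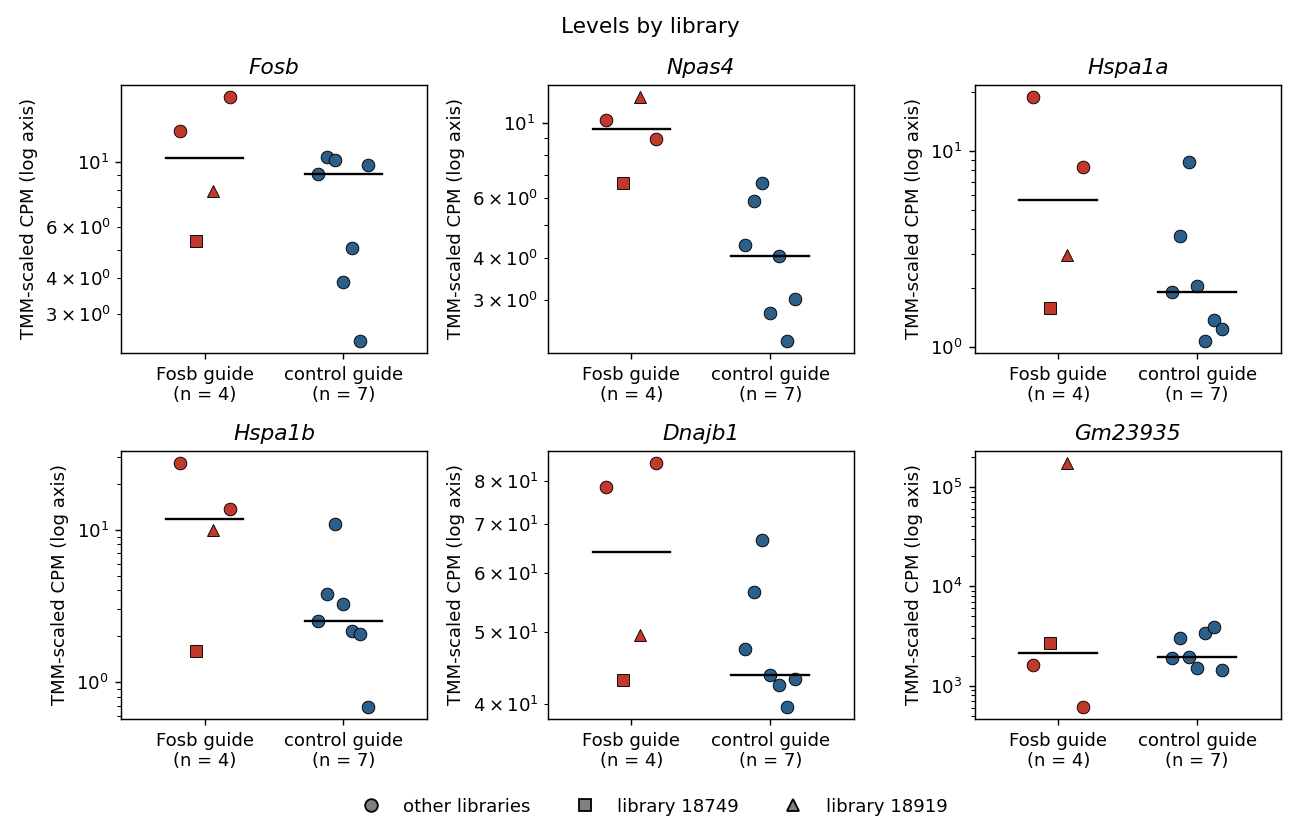
TMM-scaled CPM on a log axis of 6 genes in each library, with the Fosb guide (red, n = 4) and the control guide (blue, n = 7); squares mark library 18749, triangles 18919, and black lines the group medians. For Hspa1b and Dnajb1 the red circles (17728 and 19211) lie above all controls while the square lies among them, and the highest Gm23935 point is 18919.

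Across all genes 1 of 25420 passed with 11 libraries (0.00393%), Gm23935, higher with the Fosb guide. It is annotated as a miRNA gene of 57 bases on chromosome 16, from 11144125 to 11144181. It was at 1607 CPM in 17728, 2690 in 18749, 173600 in 18919 and 613 in 19211, against 1450 through 1925 to 3933 CPM in controls. The high value was in 18919 alone, and 19211 was below all controls. Its log2 fold change was 4.19 (edgeR adjusted p = 0.00192), and without 18919 it was -0.57, with 0 of 25904 genes passing (0%) by edgeR and 672 at an unadjusted p under 0.05. In the same library the ribosomal RNA feature CT010467.1 was at 3853000 CPM, where controls had 649 to 28900, and Lars2 at 2538000 CPM, where controls had 109 to 18820. Library 18919 thus carried a high scaled level of each, and the part of ribosomal RNA in the Gm23935 value was not tested. These levels rest on the TMM factor of 18919, 0.0801, against 1.06 to 1.26 in the other libraries of the comparison. It set the size of 18919 to 1009954, so CPM there is not a share of its 12615397 counts. Before scaling Gm23935 had 175376 counts in 18919, and 127765 of 28517792 in control 19511.

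At an unadjusted edgeR p under 0.05 there were 818 genes (3.22%), of which 137 were higher (0.539%) and 681 lower (2.68%). All 4 Fosb-guide libraries lay above all 7 controls for 7 genes (0.0275%) and below them for 63 (0.248%). Of these 63, 49 had no count in 18919, and 17 had a mean of at least 1 CPM. Of the 7 higher genes, 5 had under 3 counts in 18919, and 2 had a mean of at least 1 CPM. With 18919 left out of the ordering, the Fosb-guide libraries lay above all controls for 42 genes (0.165%) and below for 84 (0.33%).

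**Figure D3:**
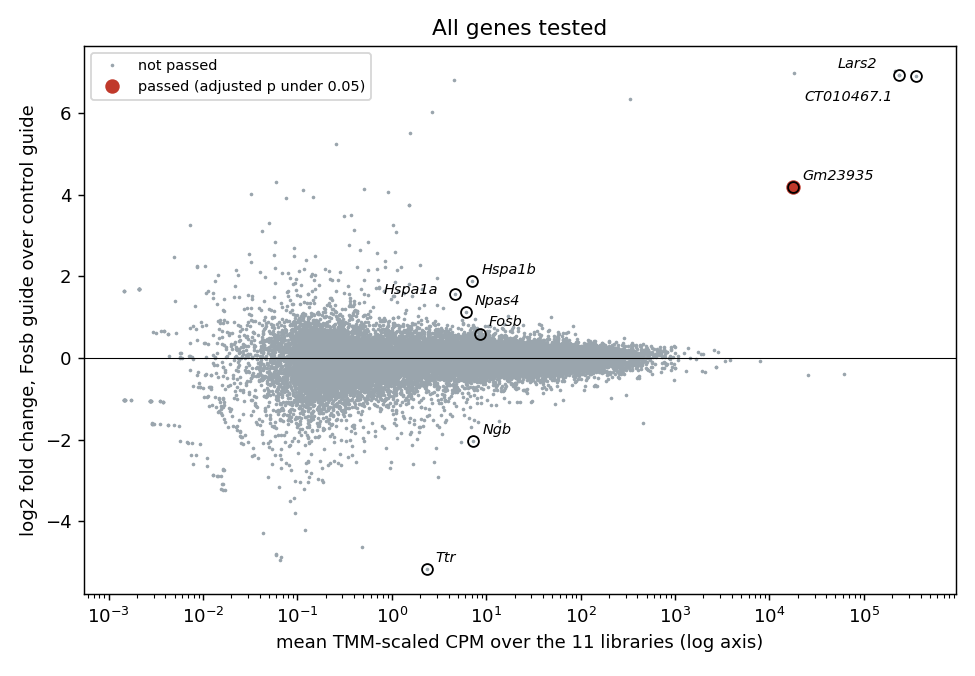
Log2 fold change with the Fosb guide over the control guide against mean TMM-scaled CPM over the 11 libraries (log axis), 1 point per gene tested; the filled red point passed and open circles are named genes. Gm23935 at 4.19 is the passing gene, and Lars2 and CT010467.1, at 6.93 and 6.92, did not pass.

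Among expressed genes with an established symbol, those with the smallest p on the higher side included the heat shock genes above and some regulators of transcription and splicing. Khdc4, an RNA-binding splicing protein, was at 36.4, 28.7, 31.7 and 42.2 CPM in 17728, 18749, 18919 and 19211, against 22.04 through 27.3 to 32.9 CPM in controls (log2 0.34). Med23, a Mediator subunit, was at 0.29, Prpf4, of the U4/U6 particle, at 0.35, and Slx4ip, a partner of the nuclease scaffold Slx4, at 0.36 on the log2 scale. None of these passed, and for Khdc4 18749 and 18919 lay inside the control range. The remaining higher gene names were Fosl2, CT010467.1 and the 5S ribosomal RNA gene n-R5s194 (log2 6.80), which was at 49.5 CPM in 18919 and at most 0.193 CPM elsewhere.

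On the lower side none passed either, and for each gene given here the highest control was 19511. Cmbl, a hydrolase, was at 1.64, 3.81, 0.990 and 3.19 CPM with the Fosb guide, against 2.42 through 3.95 to 17.1 CPM in controls (log2 -1.18; -0.48 without 19220 and 19511). Agbl3, a tubulin deglutamylase, went from -0.75 to -0.30 in the same way, Gkn3 from -1.87 to -0.87, and Rida from -0.49 to -0.26. Proca1 had no overlap between groups, at 1.21, 1.58, 0 and 1.597 CPM against 1.599 through 2.51 to 5.08 CPM (log2 -0.98). Its highest Fosb-guide library, 19211, and lowest control, 19107, were next to each other, and 18919 had no count. Without 19220 and 19511 its log2 fold change was -0.73. Complete separation downward held for 0.248% of all genes. Higd2a, a respiratory complex assembly factor (-0.35), Adal (-0.35), Borcs7, of the lysosome-positioning BORC complex (-0.43), and the ciliary Rsph10b (-0.84) completed the names.

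Genes of the AP-1 family and a separate list of genes induced by neuronal activity had mostly positive fold changes, none of which passed. The AP-1 list holds Fosb itself, its relatives and Jun partners, and also Batf, Batf2 and Batf3. Of its 12 genes 0 passed, 11 were above 0 and the median was 0.40. Its mean log2 CPM was lowest in controls 19511 (2.05) and 19220 (2.45). Of 27 activity-induced genes 0 passed, 24 were above 0 and the median was 0.22. Without controls 19220 and 19511 the medians were 0.12 (10 of 12 above 0) and 0.07 (18 of 27). They were 0.48 (12 of 12) and 0.26 (24 of 27) without 18919, and 0.47 (12 of 12) and 0.29 (24 of 27) without 18749.

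Npas4, a neuron-specific transcription factor induced by calcium influx, was the member of these lists with no overlap between groups. It was at 10.1, 6.65, 11.9 and 8.95 CPM in 17728, 18749, 18919 and 19211, and controls ran from 2.28 through 4.05 to 6.64 CPM. The lowest Fosb-guide library, 18749, and the highest control, 19109, were next to each other at 6.652 and 6.641 CPM. Its log2 fold change was 1.12 (SE 0.41; unadjusted edgeR p = 0.00773, edgeR adjusted p = 1), 1.06 without 18919, 1.32 without 18749 and 0.99 without 19220 and 19511. Complete separation upward held for 0.0275% of all genes.

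Egr2, a zinc finger immediate-early factor, was at 13.04, 4.02, 6.93 and 14.9 CPM against 2.52 through 3.94 to 10.2 CPM (log2 0.80). The Fra-2 gene Fosl2 was at 71.5, 26.5, 43.6 and 65.5 CPM against 8.68 through 25.2 to 52.0 CPM (log2 0.72), and Arc, a synaptic capsid-like protein, was at 0.60. As for Fosb, 17728 and 19211 were above all controls for Egr2 and Fosl2, and 18749 was inside the control range. The activity-induced genes with negative values, Nr4a2 (-1.40), Bdnf (-1.98) and Nrn1 (-1.47), named after their values were seen, were highest in control 19219, at 31.5, 9.99 and 29.4 CPM. Among Fosb-guide libraries they were highest in 18919. Those are the libraries with the most Slc17a7, the vesicular glutamate transporter of cortical neurons, and the part of cortical tissue in these values was not tested.

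Genes reported as ΔFosB targets did not separate the groups. None of 15 passed, 12 were above 0 and the median was 0.08 (-0.05 without 19220 and 19511). Without 18749 the median was 0.24, with 14 of 15 above 0. Pdyn, the dynorphin precursor of D1 neurons, was at 209, 150, 167 and 297 CPM, against 42.2 through 177 to 262 CPM in controls (log2 0.33; 0.11 without 19220 and 19511). Cdk5, a neuronal kinase, was at 36.7, 43.0, 31.7 and 56.5 CPM, against 41.3 through 52.1 to 59.4 CPM (log2 -0.22). Of 13 genes of the CREB family and its coactivators 0 passed, with a median of 0.07, and the members of smallest p were Crem at 0.32 and Crebl2 at -0.19. Their median was -0.04 without 19220 and 19511.

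Identity genes of medium spiny neurons leaned upward as a group, with no gene passing. All 20 shared genes were above 0, with a median of 0.19, which was 0.00 with 10 of 20 above 0 when 19220 and 19511 were left out. The median was 0.20 without 18919 and 0.32 without 18749, with 20 of 20 above 0 in each case. Gnal, the striatal G protein alpha subunit, was at 352, 279, 389 and 556 CPM against 126 through 357 to 539 CPM (log2 0.28; 0.06 without 19220 and 19511). Actn2, an actin-binding protein of dendritic spines, was at 34.9, 23.3, 31.7 and 33.6 CPM against 5.85 through 26.2 to 45.3 CPM (log2 0.34; 0.05 in the same way). Control 19511 was the lowest of all libraries for both. Its summed level of the shared list was 1649 CPM, against 4150 to 6885 CPM with the Fosb guide and a control median of 4472 CPM. The D1 list had a median of 0.12 (0.10 without 19220 and 19511) and the D2 list 0.14 (-0.07), and the D2 genes of smallest p were Upb1 (0.46) and Ptprm (0.14). Without 18749 the D1 median was 0.28 and the D2 median 0.25.

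Receptors and channels of the synapse gave medians between -0.09 and 0.19. None of the 11 AMPA and NMDA receptor genes passed (median 0.08; Gria4 at -0.33), nor any of 14 GABA-A receptor genes (-0.09; Gabrg1 at -0.57), 16 scaffold genes (-0.05), 17 potassium channel genes (0.19) or 13 sodium and calcium channel genes (0.12). Without 19220 and 19511 both channel medians were -0.02, with 6 of 17 and 5 of 13 above 0, and Gabrg1, whose highest library was 19511 at 248 CPM, was at -0.015. Without 18749 the scaffold median was 0.18, with 13 of 16 above 0, and the GABA-A median 0.05, with 8 of 14. The potassium channel median was then 0.34 (16 of 17 above 0) and the sodium and calcium channel median 0.31 (11 of 13). Without 18919 both channel medians stayed above 0, at 0.11 and 0.06. Of 8 opioid peptide and receptor genes Pnoc, the nociceptin precursor, had the smallest p, at 0.653, 0.907, 0.990 and 0.814 CPM against 0.447 through 1.69 to 9.36 CPM (log2 -1.70; -0.81 without 19220 and 19511). Its highest level was in 19511. Of the interneuron lists, 8 cholinergic genes had a median of 0.03 and 12 GABAergic genes -0.23, with none passing. The GABAergic median was 0.18, with 7 of 12 above 0, without 18749, and the cholinergic median 0.16 without 19220 and 19511.

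Genes of the interferon and antigen presentation response varied more between libraries of 1 guide than between guides. None of 32 interferon-stimulated genes passed, 31 were above 0 and the median was 0.31. Without controls 19220 and 19511 the median was -0.09, with 7 of 32 above 0. The same held for interferon gamma GTPases (0.27 and -0.14), MHC class I (0.29 and -0.10) and MHC class II genes (0.29 and -0.10). Irf9, a transcription factor of the interferon response, was at 118, 118, 107 and 97.8 CPM with the Fosb guide and 15.6 through 105 to 127 CPM in controls (log2 0.41; 0.03 without the 2 controls).

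Further members followed the same libraries. Ifi47, an interferon-inducible GTPase, was at 241, 242, 81.2 and 85.7 CPM, against 9.45 through 126 to 282 CPM (log2 0.41), and Tgtp1 was at 0.45. H2-T22, an MHC class I gene, was at 0.37, and Ciita, the switch of MHC class II transcription, at 0.39. For Ifi47 and H2-T22 the Fosb-guide levels lay inside the control range, and for Tgtp1 and Ciita 17728 alone was above it. Summed interferon-stimulated genes were at 1834 to 3599 CPM with the Fosb guide, and in controls at 314.9 (19511), 566.5 (19220) and 2271 to 3796 CPM in the other 5.

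Lymphocyte transcripts spread the most. The B cell and immunoglobulin list had the largest SD of mean level over the 11 libraries, and 0 of its 14 genes passed (median 0.73, and 0.34 without 19220 and 19511). Igha, the immunoglobulin A heavy chain, was at 231, 94.4, 27.7 and 99.1 CPM with the Fosb guide, while controls ran from 0.403 (19512) through 30.3 to 218 CPM (19107). Jchain, which joins secreted antibodies, followed it, from 16.8 to 80.1 CPM with the Fosb guide and from 0.365 to 78.8 CPM in controls. The groups overlapped for both, and controls 19220, 19511 and 19512 were the lowest of the 11. T cell and cytotoxic genes had 26 of 26 above 0 and a median of 0.38, which turned to -0.18 with 9 of 26 above 0 without 18749, and was 0.01 without 19220 and 19511. Klrd1, an NK cell receptor chain, was at 13.4 CPM in 18749 and at most 4.75 in the other Fosb-guide libraries (log2 0.78, and -0.10 without 18749). The chemokine list had a median of 0.38 (0.01 without 19220 and 19511), with Ccl19 at 1.78 from levels of at most 0.558 CPM.

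**Figure D4:**
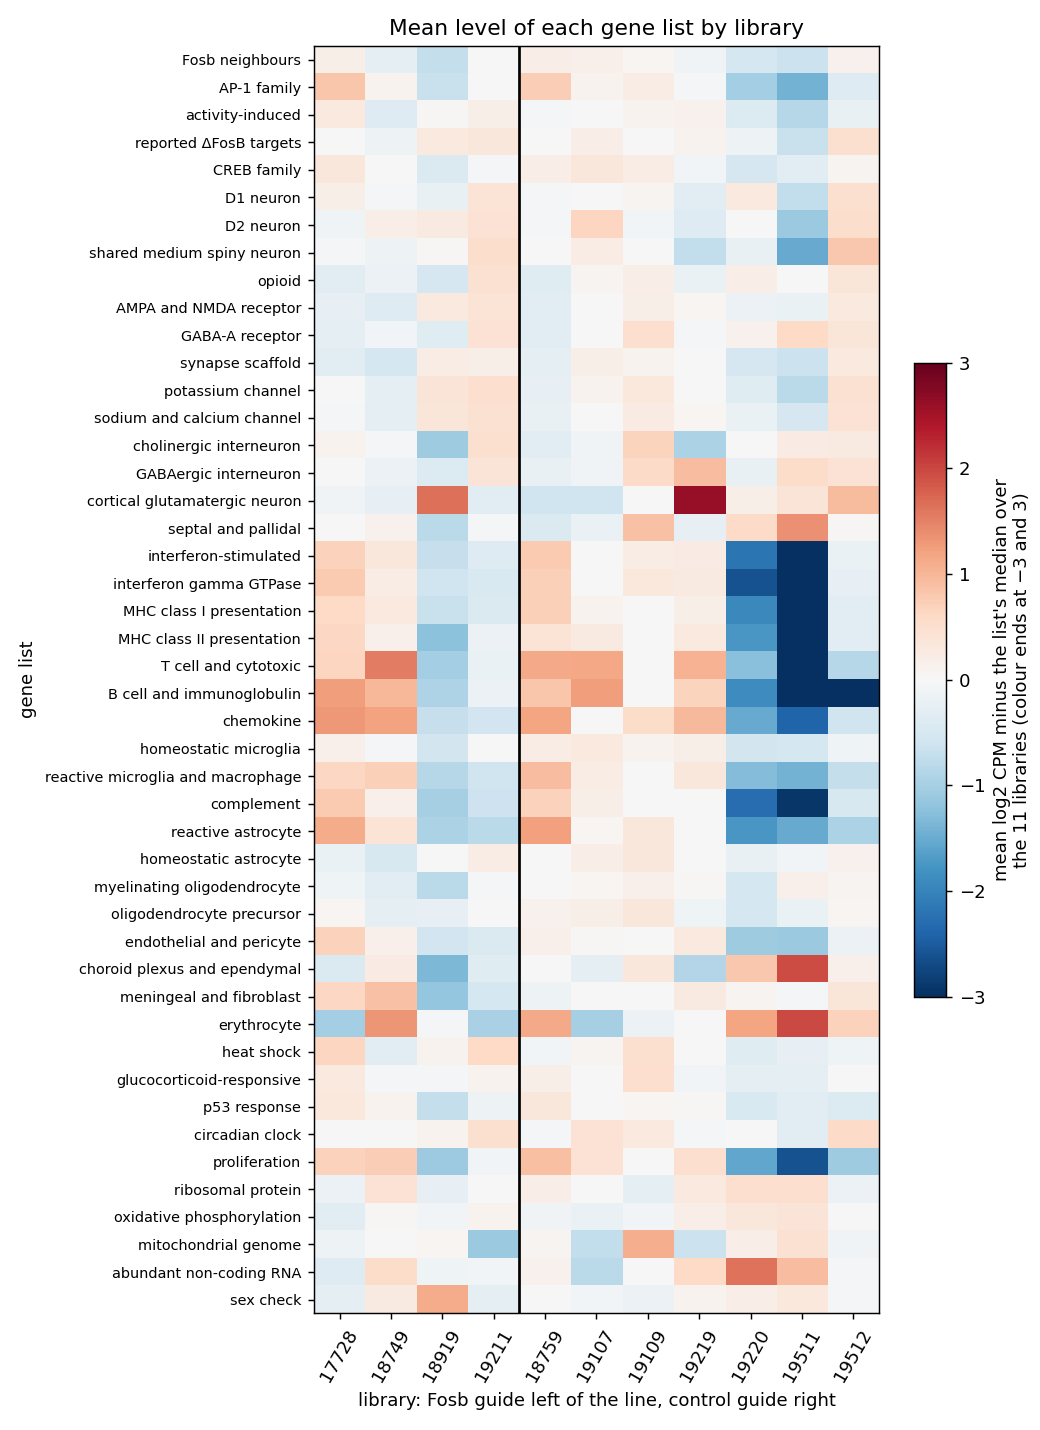
Mean log2 CPM of 46 gene lists (rows) in the 11 libraries (columns), less the list's median over the libraries; red is higher, blue lower (colours end at -3 and 3), and the line parts the 4 Fosb-guide from the 7 control libraries. Controls 19220 and 19511 are blue over the immune lists, 19511 also over medium spiny neuron genes, and 18919 and 19219 are red for the cortical list.

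Glial lists gave small shifts. Of 13 myelin genes 0 passed, 1 was above 0 and the median was -0.33 (-0.31 without 19220 and 19511). Mbp, myelin basic protein, was at 828, 600.4, 713 and 931 CPM against 709 through 1151 to 1308 CPM (log2 -0.53), and the Fosb-guide levels lay below 6 of the 7 controls. Aspa, aspartoacylase, was at 11.8, 15.9, 6.93 and 16.4 CPM against 12.6 through 19.7 to 34.6 CPM (log2 -0.57). The 10 genes of oligodendrocyte precursors had a median of -0.06. Homeostatic astrocyte genes had a median of -0.09, with Gja1 (connexin 43) at -0.32, and reactive astrocyte genes 0.31 (0.03 without 19220 and 19511). Homeostatic microglia genes were at 0.00, with Gpr34 at -0.72 (0.023 without 19220 and 19511), while genes of reactive microglia and macrophages were at 0.26 (-0.09) with Apoe at -0.31. Without 19220 and 19511 the precursor median was -0.26 (1 of 10 above 0). The homeostatic astrocyte median was then -0.225 (1 of 11) and the homeostatic microglia median -0.21 (1 of 12). Without 18749 the precursor, homeostatic astrocyte and homeostatic microglia medians were 0.06, -0.02 and 0.07. Complement genes were all above 0 (14 of 14, median 0.19), but 4 of 14 were without 19220 and 19511.

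Markers of neighbouring tissue differed between libraries of either guide. Slc17a7 was at 289 CPM in 18919 and 395 CPM in control 19219, against 2.41 to 34.8 CPM in the other 9. The 14 cortical genes had a median of -0.96, which was -1.92 without 18919, -0.52 without 18749 and -0.47 without 19220 and 19511. Choroid plexus and ependymal genes had a median of -1.46 (-0.57 without 19220 and 19511). Ttr, the choroid plexus transthyretin, was at 23.1 CPM in 19511 and at most 0.990 in the other 10 (log2 -5.17; -1.04 without 19220 and 19511). Ngb, neuroglobin, at 43.2 CPM, and Slc17a6, a glutamate transporter of septal and pallidal neurons, at 30.0 CPM, were also highest in 19511 (log2 -2.02 and -1.68), and Otx2 was at -1.15. Without 19220 and 19511 these were at -0.43, -1.07 and -0.57. Summed cortical genes were at 417 to 744 CPM with the Fosb guide and 267 to 874 CPM in controls. Among Fosb-guide libraries the largest cortical sum was in 19211, where the mean log2 CPM of the list was lowest (1.16). Library 18919 summed to 692 CPM, so among them the sums did not follow Slc17a7. Summed septal and pallidal genes were at 44.3 to 78.2 CPM with the Fosb guide and 31.9 to 159 CPM in controls. The part of dissection in these differences was not tested.

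Vessel and blood genes were mixed. Endothelial and pericyte genes had a median of 0.25, with 15 of 18 above 0 and 9 of 18 without 19220 and 19511; Vwf, the clotting factor carrier of endothelium, was at 114, 58.6, 31.7 and 28.6 CPM against 11.2 through 47.8 to 64.5 CPM (log2 0.66; 0.32 without 19220 and 19511). Erythrocyte genes had a median of -0.64, with 0 of 5 above 0, which was -1.57 without 18749 and -0.14 without 19220 and 19511. Hba-a1, an alpha globin, was at 16.1, 57.0, 23.8 and 14.3 CPM against 15.5 through 45.7 to 79.8 CPM (log2 -0.60; -1.27 without 18749 and -0.21 without 19220 and 19511). Its level in 18749 lay between those of controls 19220 and 19511, the highest 2 controls.

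Genes of protein synthesis and respiration lay slightly lower. Of 36 ribosomal protein genes 0 passed, 1 was above 0 and the median was -0.15, but 21 of 36 were above 0 without 19220 and 19511. Rps27a was at 150.5, 305, 149.5 and 187 CPM against 198 through 248 to 418 CPM (log2 -0.46; -0.19 in the same way). Nuclear genes of oxidative phosphorylation had a median of -0.17 (Uqcrb at -0.32) and the 15 genes of the mitochondrial genome -0.37, with 0 above 0 (mt-Nd5 at -0.40). Without 19220 and 19511 these medians were -0.02 and -0.25. Of the abundant non-coding RNAs Rny3, a Y RNA, was at -1.13, and at -0.44 without 19220 and 19511.

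**Figure D5:**
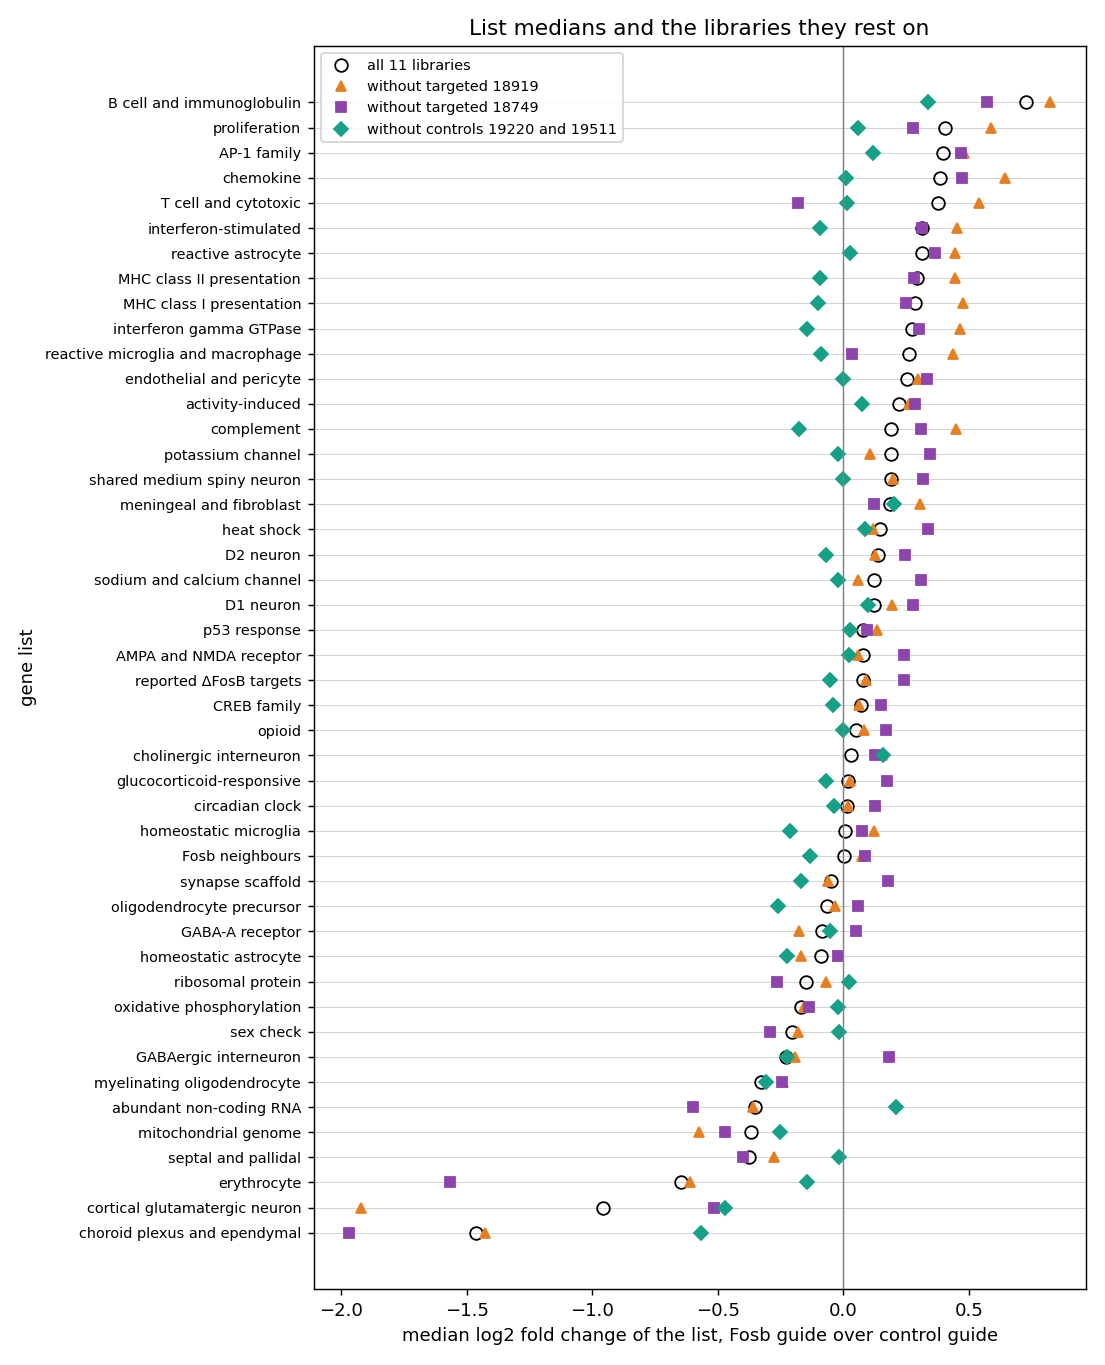
Median log2 fold change of each of 46 gene lists with all 11 libraries (open circles), without Fosb-guide library 18919 (triangles), without 18749 (squares) and without controls 19220 and 19511 (diamonds). For the interferon, MHC and complement lists the diamonds lie below 0 and the other marks above it; the square of the T cell list is at -0.18.

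The effect of the guide was set against that in females given the same vectors (F_D1-D2, 12 with the Fosb guide and 8 controls) and in males given Cre-dependent vectors (M_D1, 7 and 4), in each case as a difference between effects in the same fit. Against females 0 of 25420 genes passed (0%) by edgeR. At an unadjusted p under 0.05 there were 1069 (4.21%), of which 320 differed upward (1.26%) and 749 downward (2.95%). DESeq2 called 1 gene. Hspa1a was at 1.602 ± 0.776 CPM (SD, n = 12) with the Fosb guide and 1.82 ± 0.628 (n = 8) in females, and its effect differed by 1.63 (SE 0.52, edgeR adjusted p = 1). Female Dnajb1 was at 45.4 ± 5.30 and 44.0 ± 5.25 CPM. In females no library reached the Hspa1a level of male 17728 or 19211, the highest being 2.95 CPM.

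Against M_D1 2 genes passed (0.00787%), and 472 had an unadjusted p under 0.05 (1.86%), 87 upward (0.342%) and 385 downward (1.51%). Library 18722, the near match of 18749, is among the M_D1 Fosb-guide libraries, on the other side of this difference. If they share an animal, the effects compared here are not independent. The number passing without 18749 and 18722 is given with the settings below. 1700057H15Rik differed by 8.26 (edgeR adjusted p = 3.48e-04), and its counts rested on single libraries: 4.95 CPM in 18749 and at most 0.0637 in the other Fosb-guide libraries, while M_D1 controls had a median of 0.154 and a highest value of 6.75 CPM. Without 18749 the difference was 3.15 (edgeR adjusted p = 1). Gm23935 differed by 4.78 (edgeR adjusted p = 0.0411), and by 0.04 without 18919. Hspa1b differed by 3.05 (SE 0.74, unadjusted edgeR p = 9.3e-05, edgeR adjusted p = 0.791). In M_D1 it was at 1.61 ± 0.961 CPM (SD, n = 7) with the Fosb guide and 3.67 ± 4.68 (n = 4) in controls, of which the highest had 10.7 CPM. The Fosb effect differed by 0.52 from females (SE 0.34) and by 0.12 from M_D1 males (SE 0.39), each with an edgeR adjusted p of 1.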

How the data were processed

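The deposited table holds whole-number counts of reads per gene, which the authors made, per the submitters' processing notes, with Trim Galore, HISAT2, SAMtools and featureCounts on mm10; DESeq2 1.27 is also named. The sources used here name no strand setting, multi-mapping rule or annotation. Of 88 columns 87 matched a label and 1 was not used. Columns were matched to labels by title numbers. The fit was made by edgeR 4.0.16 under R 4.3.3, with robust quasi-likelihood, TMM scaling, filterByExpr by group, 12 groups plus sequencing batch in 87 libraries, contrasts for the 11 libraries here, and Benjamini-Hochberg adjustment at 0.05 over 25420 genes. Levels are TMM-scaled CPM. Totals were 12615397 to 50154089 counts with the Fosb guide and 19360881 to 54013949 in controls. Intervals and tests reflect counting and library spread only. Fosb was also tested by exact permutation of mean log2 CPM, two-sided. Of the 55487 genes counted, 393 had no symbol in the name table used, and they are not named.

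Members and lists were chosen with earlier results of these data known. A rule named Fosb, its neighbours, genes that passed, the 10 genes of smallest p each way (established symbols, mean level 1 CPM or more), the 2 of smallest p in each of 46 lists, genes that differ between arms and 4 members of the most variable list. It named 121 genes, of which values are given for 66 and the rest are not reported here; others with a value were chosen after their values were seen. Lists are described by counts and medians, without a test. Alternatives were DESeq2 1.42.0 and its size factors, limma-voom 3.58.1, sva 3.50.0, other filters, scalings and sample sets, and leaving out libraries. Counts were also simulated at the real depths (24792 genes tested, 100 changed at each size). There the fit recovered 77% of changes of log2 1 and 92% of log2 2, and called 6 unchanged genes. These shares describe the simulated counts only. They are not taken as power in the real libraries, which differed from each other over whole gene lists. In the main fit Hspa1a at log2 1.56 and Npas4 at 1.12 did not pass, and the gene that passed was Gm23935 at 4.19.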

Additional observations from a re-analysis of the deposited data

Results flagged for a closer look

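Levels of 3 lists in single libraries lay far from the rest of their group; 102 sets of levels were tested in this way, 3 were flagged, and chance flags about 1 in 20. The cortical glutamatergic list was highest of the 4 Fosb-guide libraries in 18919, at a mean log2 CPM of 3.15, where the others had 1.16 to 1.39. The septal and pallidal list was lowest in the same library, at 0.66, where the others had 1.44 to 1.58. The myelin list was lowest of the 7 controls in 19220, at 6.52, where the others had 7.05 to 7.21.

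A pair of genes differed between the guide effects of M_D1-D2 and M_D1 males by edgeR. For 1700057H15Rik the difference was 8.26, and 3.15 without 18749, which held nearly all of its reads among the Fosb-guide libraries. For Gm23935 it was 4.78, and 0.04 without 18919.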

How the results depend on the processing

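Depth limited library 18919, where 7511 of the 25420 genes had no count; a gene at 0 there was not detectable at that depth. No paired analysis was possible because library numbers are unique to each library. Sample sets with 19219, 19220, 19511 or 18722 left out, and 10 libraries fitted alone, were added after the data were seen. Scaling by DESeq2 size factors, or without 24 of the most abundant genes, moved the median of all genes by less than 0.1.

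For the main comparison the number of genes passed, 1, was 0 with limma-voom, with the 11 libraries fitted alone, with male libraries of batch 1 alone and with 3 surrogate variables. It was 0 to 4 with single libraries left out (0 without 18919, 2 without 19211, 3 without control 19109, 4 without 18749). It was 3 without 18919 and 18749, 0 without 18919, 19219 and 19511, and 0 for the 10 libraries fitted alone without 18919 or without 18749. Unadjusted p-values under 0.05 numbered 167 with the 11 libraries alone and 466 with limma-voom. Without control 19109 the added genes were Hspa1a (2.18) and Gm20481 (2.14), and without 19211 1700057H15Rik (4.64). Against F_D1-D2, 0 became 1 with DESeq2, with DESeq2 size factors, without 18749, 19220 and 19511 and without 18749 and 18722, and was 0 to 1 with single libraries left out. Against M_D1, 2 became 1 with no filter, no batch term, 3 surrogate variables, or without 18919, 19219 and 19511, without 19220 and 19511, without 18749, 19220 and 19511, or without 18749 and 18722. It became 0 with limma-voom, male batch 1 alone and without 18919 and 18749, and was 1 to 2 with single libraries left out. The Fosb difference stayed above 0, at 0.34 to 0.89 with single libraries left out, and passed in none of the settings run.

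Log2 fold changes that changed sign follow; the cause was not tested. Without 18919, Gm23935 was at -0.57, CT010467.1 at -2.64 and Lars2 at -3.38. Without 18919 and 18749 they were at -1.13, -2.40 and -3.08, and Gm23935 minus M_D1 was at -0.53. Without 18919, 19219 and 19511 they were at -0.50, -2.99 and -3.73, and n-R5s194 was at -0.035. In the 10 libraries without 18919 alone they were at -0.58, -2.65 and -3.39. With 3 surrogate variables CT010467.1 was at -0.60, Lars2 at -1.15, Vasp at -0.068 and Ciita at -0.059. Without 19220 and 19511 Vasp was at -0.083, Ifi47 at -0.0079, Ciita at -0.041 and Gpr34 at 0.023. Without 18749, 19220 and 19511 Vasp was at -0.15, Rtn2 at 0.10, Crebl2 at 0.070, Gabrg1 at 0.0093, Tgtp1 at -0.018, Ifi47 at -0.20, H2-T22 at -0.16, Klrd1 at -0.48 and 1700057H15Rik at -0.82. Without 18749 Klrd1 was at -0.10 and 1700057H15Rik at -1.01, without 18919 and 18749 at -0.11 and -1.03, and without 18749 and 18722 at -0.10 and -1.01. Klrd1 was at -0.14 in the 10 libraries without 18749 alone. Ciita was at -0.11 without 17728, and Nr4a2 at 0.063 without control 19219. Over single libraries left out, Gm23935 ran from -0.57 to 4.73, CT010467.1 from -2.64 to 7.74, Lars2 from -3.38 to 7.77, Ciita from -0.11 to 0.66, Klrd1 from -0.10 to 1.16, 1700057H15Rik from -1.01 to 4.64 and Nr4a2 from -1.96 to 0.063. The cortical and erythrocyte list medians moved by more than the spread between libraries without 18919 and 18749, to -2.02 and -1.78, and the choroid plexus median without 19220 and 19511, to -0.57. Of the values for single genes and lists over all settings, 2592 kept their direction and side of the threshold, or for list medians moved by less than the spread between libraries.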

Other observations

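Cell cycle genes followed the same 2 controls as the immune lists. All 16 were above 0 with a median of 0.41, and 12 of 16 with a median of 0.06 without 19220 and 19511; none passed by edgeR. Ccnb1, the mitotic cyclin, was at 14.6, 18.7, 5.94 and 10.1 CPM in 17728, 18749, 18919 and 19211, against 1.75 (19511) through 7.40 to 17.9 CPM in controls (log2 0.54; 0.21 without 19220 and 19511). Genes of the meninges and fibroblasts had a median of 0.19 and kept it without those controls (0.20, 10 of 12 above 0), with Fn1, fibronectin, at 0.56 (0.23 without those controls).

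Hormone, p53 and clock lists had medians near 0 with all 11 libraries. Glucocorticoid-responsive genes had a median of 0.02 (Sgk1, a kinase induced by glucocorticoids, at 0.37 and Mt1, a metallothionein, at -0.22), p53 targets 0.08 (10 of 11 above 0) and circadian clock genes 0.01. In the same order these medians were 0.17, 0.09 and 0.13 without 18749, and -0.07, 0.03 and -0.04 without 19220 and 19511. Sgk1 was at 196, 99.4, 67.3 and 141 CPM against 62.0 through 90.5 to 166 CPM in controls, with 17728 alone above every control. No member of these lists passed by edgeR.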
